A study of Mus musculus with 13 samples.

Results

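Cytochrome P450 genes of families 1 to 4 were followed across the cell types of the mouse liver. The members were all genes whose probe set carried 1 gene symbol and whose symbol began with Cyp1, Cyp2, Cyp3 or Cyp4 and a subfamily letter. Where a gene had several such probe sets, the one with the highest mean was to stand for it, and each member had 1. This gave 70 of the 19537 genes with such a probe set, namely 3 genes of family 1, 45 of family 2, 6 of family 3 and 16 of family 4. Expression was read on 13 Affymetrix arrays of total RNA from liver cells of naive C57BL/6 mice aged 6 to 10 weeks. Hepatocytes, the parenchymal cells, were measured on 3 arrays, Kupffer cells, the resident macrophages, on 3, and LSEC, the liver sinusoidal endothelial cells, on 3, all from freshly isolated cells. Hepatic stellate cells (HSC), the retinoid-storing pericytes, had been kept in serum-supplemented medium for 1 day on 2 arrays, for 7 days on 1 array and for 14 days on 1 array. Uncultured HSC were not analysed here, so what belongs to HSC and what belongs to a day in culture cannot be told apart. The labels give neither the sex of the mice nor whether the replicates came from separate animals.

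The labelled cell types were checked against their defining markers. Hepatocytes exceeded each of the other populations for 23 of 23 hepatocyte markers, as did Kupffer cells for 10 of 10 Kupffer cell markers, LSEC for 8 of 10 endothelial markers and HSC day 1 for 7 of 10 stellate cell markers. Arrays of some populations also read markers of other cells. Summed over the 23 hepatocyte markers, intensity was 26101 and 14099 on the HSC day 1 arrays, against 219602 to 241452 on the hepatocyte arrays, 11426 to 15137 on the Kupffer cell arrays and 2708 to 3011 on the LSEC arrays. Summed over the 10 endothelial markers, it was 11786 and 10798 on the HSC day 1 arrays, against 44154 to 63105 on the LSEC arrays and 14454 to 16788 on the Kupffer cell arrays. The endothelial marker Cdh5 alone gave 9141 to 10040 of that sum on the Kupffer cell arrays and 6552 and 5427 on the HSC day 1 arrays. The HSC arrays of day 7 and day 14 read 5224 and 5011 for the hepatocyte markers and 1903 and 2309 for the endothelial markers. The transferrin gene Trf alone gave 7407 to 7633 of the hepatocyte marker sum on the Kupffer cell arrays, 2672 on day 7 and 2484 on day 14. Of 4 bile duct markers measured, Sox9 alone passed the filter on low values in the population comparison, and it was higher in hepatocytes. Array medians lay between 216 and 233.

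P450 enzymes are haem-containing mono-oxygenases that sit mostly in the endoplasmic reticulum and take electrons from the P450 reductase and cytochrome b5. Families 1 to 3 oxidise drugs, toxins and steroids, and family 4 hydroxylates fatty acids and their derivatives, although several family 2 enzymes also act on arachidonic acid. Hepatocytes are their classic site, and within the lobule many are densest around the central vein, where Cyp2e1 and Cyp1a2 lie, while Cyp2f2 lies around the portal vein. Their genes answer to ligand-activated regulators: family 1 to the aryl hydrocarbon receptor AHR, Cyp2b10 to CAR, Cyp3a11 to PXR and the Cyp4a genes to PPARA.

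The promoter windows of 5 genes are shown because the results turn on these genes. The 3 genes of family 1 had different patterns over the cell types, and Cyp2e1 and Cyp2f2 lay far apart in the share of the hepatocyte level read on the HSC day 1 arrays. Each window holds the 250 bases before the RefSeq transcription start in GRCm38.p6, written 5′ to 3′ on the gene's strand. Capitals mark TATAAA on the gene's strand and GCGTG on either strand, so that GCGTG on the other strand appears as its complement. TATAAA is the TATA box, and GCGTG is the core bound by AHR with its partner ARNT. The windows are chr9:57697363-57697612 on the + strand for Cyp1a1, chr9:57683656-57683905 on the - strand for Cyp1a2, chr17:79715062-79715311 on the - strand for Cyp1b1, chr7:140763569-140763818 on the + strand for Cyp2e1 and chr7:27119705-27119954 on the + strand for Cyp2f2.
Cyp1a1: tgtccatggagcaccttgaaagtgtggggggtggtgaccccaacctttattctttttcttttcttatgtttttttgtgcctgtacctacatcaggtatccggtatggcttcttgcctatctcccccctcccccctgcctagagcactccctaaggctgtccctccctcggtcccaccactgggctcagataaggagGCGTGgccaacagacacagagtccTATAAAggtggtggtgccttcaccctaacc
Cyp1a2: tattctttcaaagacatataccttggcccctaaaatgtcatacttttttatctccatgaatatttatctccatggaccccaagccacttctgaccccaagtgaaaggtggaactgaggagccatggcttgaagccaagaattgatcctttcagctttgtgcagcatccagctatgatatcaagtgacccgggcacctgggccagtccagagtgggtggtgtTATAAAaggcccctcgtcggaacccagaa
Cyp1b1: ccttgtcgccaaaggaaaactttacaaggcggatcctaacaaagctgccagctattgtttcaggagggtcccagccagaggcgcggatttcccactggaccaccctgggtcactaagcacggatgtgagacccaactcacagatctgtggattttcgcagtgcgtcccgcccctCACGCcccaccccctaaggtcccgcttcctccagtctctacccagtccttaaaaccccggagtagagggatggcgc
Cyp2e1: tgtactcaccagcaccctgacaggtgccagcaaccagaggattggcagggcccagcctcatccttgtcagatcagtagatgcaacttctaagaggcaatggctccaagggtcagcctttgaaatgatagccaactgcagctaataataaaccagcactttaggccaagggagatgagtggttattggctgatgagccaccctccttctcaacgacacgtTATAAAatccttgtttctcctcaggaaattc
Cyp2f2: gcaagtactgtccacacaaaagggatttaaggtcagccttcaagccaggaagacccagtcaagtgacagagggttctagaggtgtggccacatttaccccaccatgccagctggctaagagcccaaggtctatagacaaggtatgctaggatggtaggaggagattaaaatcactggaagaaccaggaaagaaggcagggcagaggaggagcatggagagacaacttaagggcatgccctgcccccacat

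Cyp1a1 and Cyp1a2 are neighbours on chromosome 9 with 0 protein-coding genes between them in the RefSeq order, and lie on opposite strands. TATAAA began 30 bases before the start of Cyp1a1 (position -30), at -29 in Cyp1a2 and at -31 in Cyp2e1, and was not found in the windows of Cyp1b1 and Cyp2f2. GCGTG was found at -54 in Cyp1a1 and, on the other strand, at -76 in Cyp1b1. Windows were available for 54 of the 70 members, 61 windows in all because some genes have several starts, some of whose windows overlap. TATAAA occurred in 15 of the 61 member windows (24.6%), and in 7.59% of the 32851 windows of all genes. AAAGTCC, a core bound by HNF4A, was searched on both strands and occurred in 10 member windows (16.4%), and in 3.58% of all windows. GCGTG occurred in 13 member windows (21.3%) and in 28.2% of all windows, and GTTAAT, a core bound by HNF1, in 4 (6.56%) and in 6.43% when searched on both strands. TATAAA and AAAGTCC can share bases where one runs into the other. Of the 54 members with a window, 23 were higher in hepatocytes than in each of the other populations. AAAGTCC was found in 10 of the 54 members and in 4 of these 23, and TATAAA in 15 and 7. GCGTG was found in 12 and 3, and GTTAAT in 4 and 3. The shares and counts describe letters in a window and do not show binding. A link between these letters and the level in hepatocytes was not tested.

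Hepatocytes held the highest level of most members that could be measured. The call required a log2 difference of at least 1 and an adjusted p below 0.05 against each of the other 3 populations, with HSC represented by day 1. Of the 70 members, 41 were tested and 32 (45.7% of the 70) were higher in hepatocytes, against 6.8% of the 12081 genes tested. Here and below, percentages of members are over all 70, including the 29 below the filter, while those of all genes are over the genes tested. The bases thus differ, and the member percentages are the lower for it. They comprised 8 of 13 Cyp2c genes, 7 of 10 Cyp2d, 4 of 6 Cyp3a, 4 of 5 Cyp4a, 2 of 9 Cyp4f, 2 of 6 Cyp2j, 1 of 5 Cyp2b and 1 of 2 Cyp2a, with Cyp1a2, Cyp2e1 and Cyp2f2. Without any filter on low values, the median log2 difference between hepatocytes and the mean of the other populations was 0.64 over the 70 members and 0.02 over all 19537 genes. In every one of the 32, the lowest hepatocyte array lay above the highest of the other 10 arrays. The call largely fixes this in advance, and the share among all genes called higher in hepatocytes was not counted. The nearest other population was HSC day 1 for 28 of the 32, LSEC for 3 (Cyp2d13, Cyp2d22 and Cyp2j6) and Kupffer cells for 1 (Cyp4f14). Taken pair by pair, 33 members were higher in hepatocytes than in Kupffer cells, against 12% of all genes tested, 34 than in LSEC, against 10%, and 33 than in HSC day 1, against 10.1%. In the other direction, Cyp4f18 was higher in Kupffer cells than in hepatocytes (13.7% of all genes), Cyp1a1 and Cyp4b1 were higher in LSEC (12.5%), and Cyp1a1, Cyp1b1 and Cyp4b1 were higher in HSC day 1 (12.3%). In such bulk samples, fewer cells of a type and less RNA per cell cannot be told apart.

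**Figure D1:**
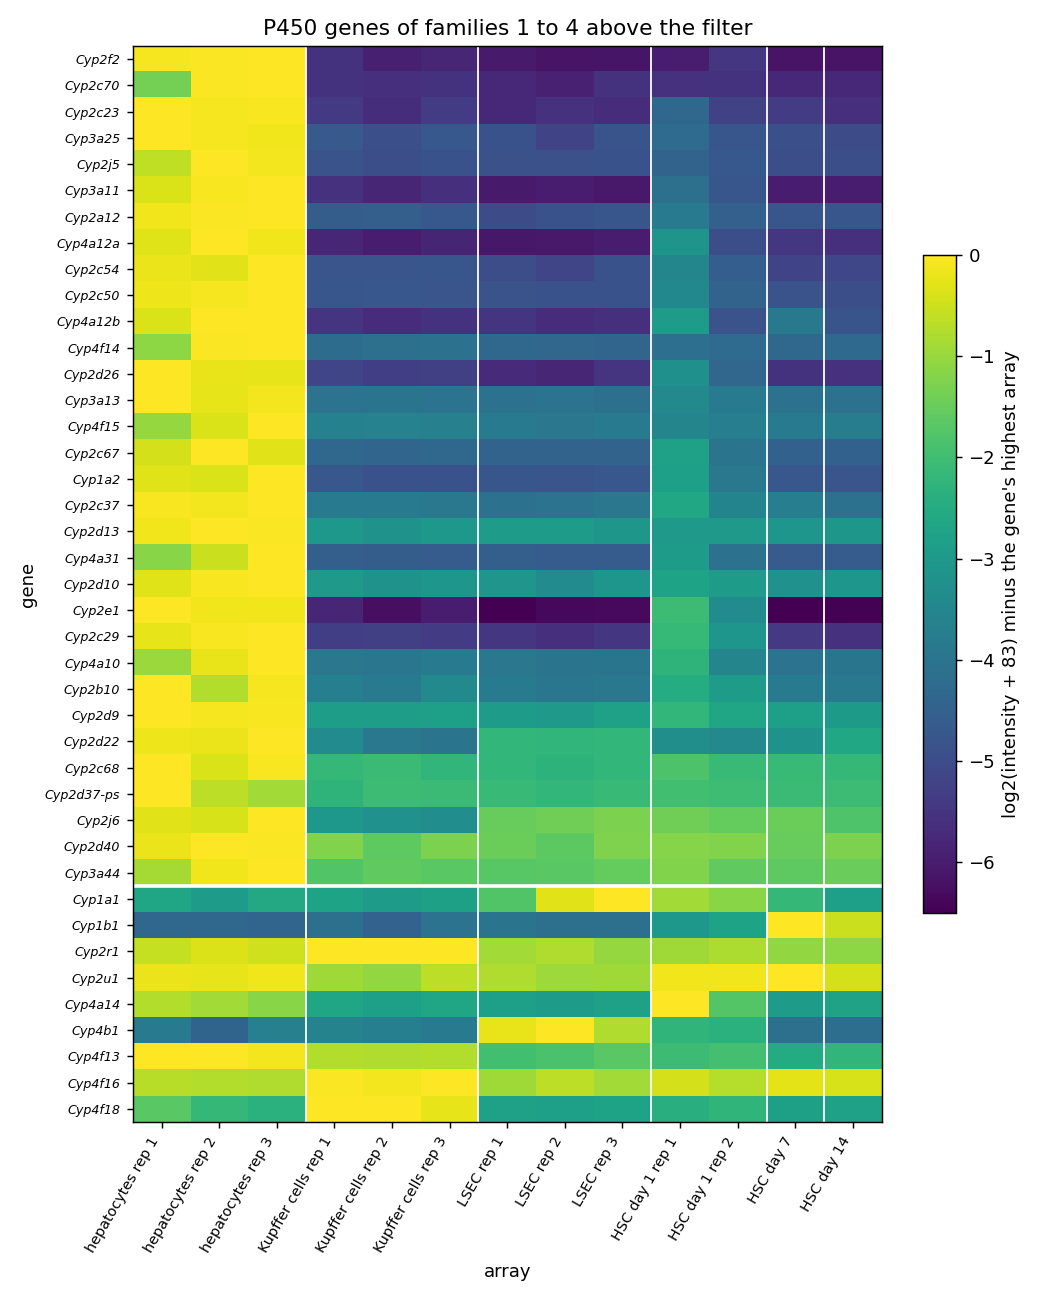
The 41 members above the filter on low values (rows) on the 13 arrays (columns), coloured by log2(intensity + 83) minus the highest array of the same gene. Above the horizontal line the 32 genes called higher in hepatocytes are bright on the 3 hepatocyte arrays, and below it the other 9 have mixed patterns, with Cyp4b1 brightest in LSEC, Cyp4f18 in Kupffer cells and Cyp4f13 in hepatocytes.

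Among the enzymes of toxin metabolism, Cyp2f2, which oxidises naphthalene, had the widest difference of all members from the nearest other population. Its intensity was 13558, 14068 and 14357 in hepatocytes, against 227.1, 154 and 174.5 in Kupffer cells, 137.7, 120.3 and 124.2 in LSEC and 140.4 and 240.7 in HSC day 1. The hepatocyte arrays stood far above all others, by 5.71 on the log2 scale from HSC day 1, the nearest population (SE 0.146, adjusted p = 2.5e-11 by limma). Cyp2e1, which oxidises ethanol and acetaminophen, read 14046, 12663 and 12769 in hepatocytes, against 170.2, 103.9 and 142.9 in Kupffer cells, 74.29, 87.87 and 93.42 in LSEC and 3340 and 1299 in HSC day 1. Its groups did not overlap either, but HSC day 1 was nearer, at a log2 difference of 2.6 (SE 0.272, adjusted p = 3.5e-06), than LSEC, at 6.3. Cyp2a12, which rehydroxylates secondary bile acids in mice, had 3462, 3682 and 3794 in hepatocytes and at most 198 on any other array, a difference of 4.09 (adjusted p = 6e-10). Cyp2b10, the standard target of CAR, had 2560, 1488 and 2395 in hepatocytes, against 390.3 and 260.7 in HSC day 1, a difference of 2.43 (adjusted p = 6e-07).

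The Cyp2c genes, several of which make epoxides from arachidonic acid, were the largest group. Cyp2c70, which makes the muricholic acids of mouse bile, had 3122, 7888 and 8126 in hepatocytes, against 89.44 and 92.5 in HSC day 1 and 53.54 to 92.95 on the Kupffer cell and LSEC arrays. Its difference from HSC day 1 was 5.09 (SE 0.306, adjusted p = 2.3e-08), although hepatocyte replicate 1 read less than the other replicates. Cyp2c23, an arachidonic acid epoxygenase, had 8374, 7886 and 8008 in hepatocytes, against 346.3 and 143.8 in HSC day 1 and at most 120.1 in Kupffer cells and LSEC, a difference of 4.71 (SE 0.199, adjusted p = 9.7e-10). Cyp2c54 had 5058, 4704 and 5798 in hepatocytes against 432 and 165.8 in HSC day 1, a difference of 3.87. For Cyp2c50 the values were 3622, 3792 and 4065 in hepatocytes and 290.5 and 110.5 in HSC day 1, a difference of 3.86. All of these left the hepatocyte arrays clear of the others, as did Cyp2c67, Cyp2c37, Cyp2c29 and Cyp2c68 with differences of 3.16, 3.02, 2.51 and 1.82. Cyp2j5, another epoxygenase, had 2408, 3719 and 3459 in hepatocytes, against 93.47 and 63.45 in HSC day 1 and 40.86 to 49.78 in Kupffer cells and LSEC, a difference of 4.33 (adjusted p = 2.1e-10).

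The Cyp3a enzymes oxidise a broad range of drugs and steroids. Cyp3a11, the main inducible member in mouse liver, had 6189, 7760 and 8056 in hepatocytes, against 391.1 and 216.8 in HSC day 1, 61.73 to 87.91 in Kupffer cells and 38.95 to 44.59 in LSEC. Cyp3a25 had 4827, 4555 and 4354 in hepatocytes, against 181 and 96.55 in HSC day 1 and 53.43 to 107 in Kupffer cells and LSEC. The 2 genes differed from HSC day 1 by 4.29 (adjusted p = 5.3e-10) and 4.42 (adjusted p = 2.1e-10). Cyp3a13 had 2223, 1854 and 2038 in hepatocytes and at most 128.7 elsewhere, a difference of 3.5. Cyp3a44 stood just past the threshold with 137.3, 282.9 and 319.6 in hepatocytes against 88.07 and 50.73 in HSC day 1, a difference of 1.08 (SE 0.205, adjusted p = 0.00054), and it passed the filter only through hepatocyte replicates 2 and 3. Cyp2a12, Cyp2c68, Cyp2c70, Cyp2d9, Cyp2d10, Cyp2d13, Cyp2j5, Cyp3a13, Cyp3a25, Cyp4f14 and Cyp4f15 also passed the filter through hepatocyte arrays alone. Further genes exceeded it outside hepatocytes only on HSC day 1 replicate 1 among the arrays of the 4 populations. These were Cyp1a2, Cyp2c23, Cyp2c50, Cyp2c54, Cyp2c67, Cyp3a11, Cyp4a10, Cyp4a12a, Cyp4a12b and Cyp4a31. The filter required 2 arrays, so they too were tested only because hepatocytes were high. With no filter on low values, 32 members were again higher in hepatocytes. Cyp1a2, which clears caffeine, had 2904, 2800 and 3671 in hepatocytes, against 442.9 and 170.2 in HSC day 1 and 46.28 to 58.56 in Kupffer cells and LSEC. Its difference was 3.13 (SE 0.225, adjusted p = 1.2e-07), in contrast to its neighbour Cyp1a1, which was near its lowest level in hepatocytes.

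In family 4, the fatty acid hydroxylase genes Cyp4a12a and Cyp4a12b were the widest apart. Cyp4a12a had 7105, 8851 and 8089 in hepatocytes, against 928.1 and 210.1 in HSC day 1 and 49.87 to 76.15 in Kupffer cells and LSEC. Cyp4a12b had 4960, 6324 and 6388 in hepatocytes, against 768.5 and 143.1 in HSC day 1 and 43.59 to 58.37 in Kupffer cells and LSEC. Both lay clear of all other arrays in hepatocytes, by 3.89 (SE 0.35, adjusted p = 9.4e-07) and 3.76 (SE 0.376, adjusted p = 2.4e-06). Cyp4f14, a leukotriene B4 hydroxylase, had 1627, 3481 and 3597 in hepatocytes, against 117.3, 132 and 137.7 in Kupffer cells, 93.23 to 100.7 in LSEC and 129.3 and 112.1 in HSC day 1. Its difference from Kupffer cells was 3.73 (SE 0.221, with a largest adjusted p of 5e-08 over the 3 contrasts). Cyp4f15, Cyp4a31 and Cyp4a10 followed with differences of 3.17, 2.91 and 2.51. The fifth Cyp4a gene, Cyp4a14, was not called.

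The Cyp2d genes ran from a wide to a narrow difference. Cyp2d26 had 10615, 9072 and 8981 in hepatocytes, against 1045 and 436.9 in HSC day 1 and 109.3 to 218.8 in Kupffer cells and LSEC, a difference of 3.65 (adjusted p = 4.7e-08). Cyp2d22 had 6355, 6245 and 7105 in hepatocytes, against 611.5, 396.4 and 363.1 in Kupffer cells, 1483, 1445 and 1491 in LSEC and 648 and 582.9 in HSC day 1. It was thus read above the filter on all 13 arrays, with LSEC next to hepatocytes at a difference of 2.09 (SE 0.137, adjusted p = 3.7e-08). Cyp2d40 and the pseudogene Cyp2d37-ps were also above the filter in other cells, and their differences were 1.13 and 1.49. Cyp2d13, also called higher in hepatocytes, is a pseudogene in RefSeq as well. Cyp2j6 likewise had 1087, 1010 and 1354 in hepatocytes, against 419.9, 461.3 and 504.1 in LSEC, 461.7 and 413.3 in HSC day 1 and 91.91, 71.35 and 62.77 in Kupffer cells. It was higher in hepatocytes by 1.17 (with a largest adjusted p of 2.8e-06 over the 3 contrasts). It was also the 1 member lower in Kupffer cells than in all 3 other populations, against 2.28% of all genes tested. The Cyp2c, Cyp2d, Cyp3a and Cyp4a genes have closely similar copies, and how far their probe sets read each other's transcripts was not tested.

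**Figure D2:**
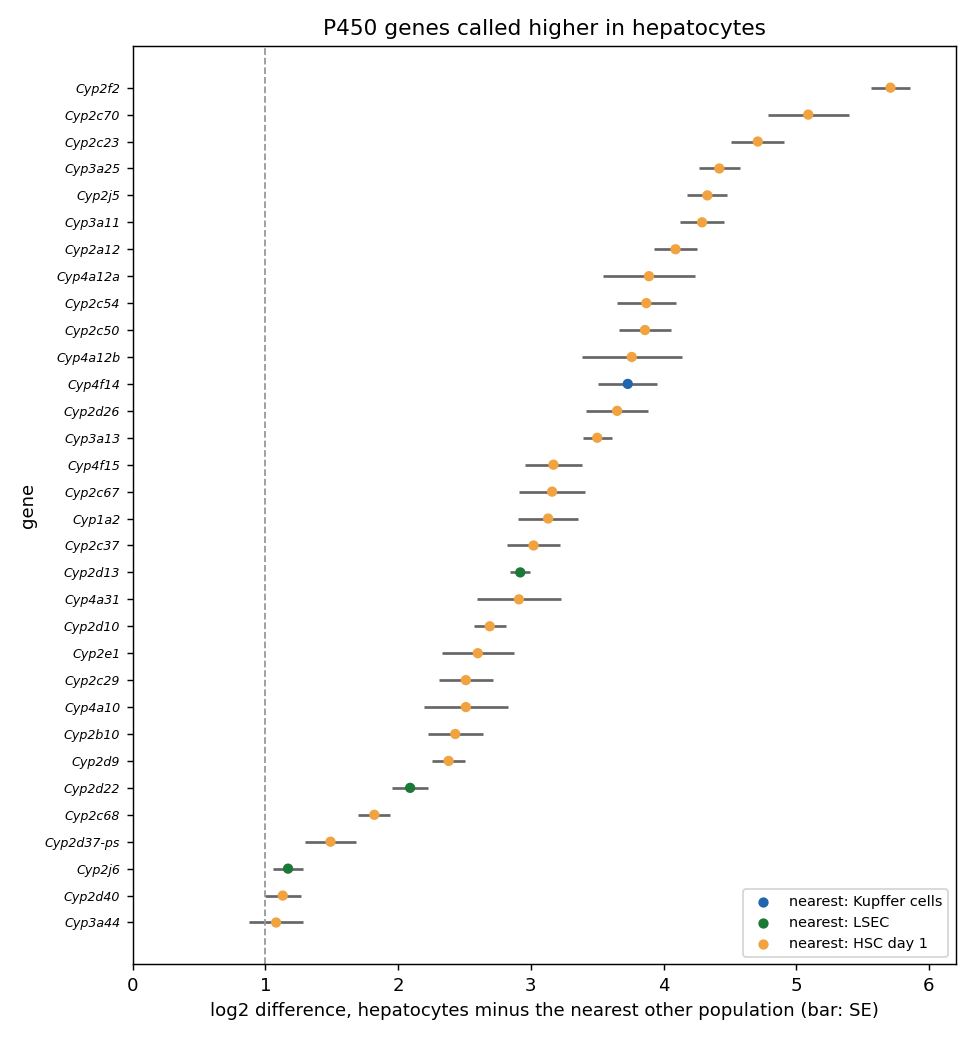
Log2 difference between hepatocytes and the nearest other population for the 32 members called higher in hepatocytes (points, coloured by the nearest population, with SE as bars, on the log2(intensity + 83) scale), with the threshold of 1 dashed. Cyp2f2 at 5.71 and Cyp2c70 at 5.09 stand at the top and Cyp3a44 at 1.08 at the bottom, and HSC day 1 is the nearest population for 28 genes.

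Some of these genes varied widely between the hepatocyte arrays. The highest array exceeded the lowest by a ratio of 2 or more in 6 of the 32 genes, namely Cyp2c70 (2.6), Cyp4a31 (2.34), Cyp3a44 (2.33), Cyp4f14 (2.21), Cyp4f15 (2.13) and Cyp4a10 (2.06). In all 6 the lowest was hepatocyte replicate 1, as in Cyp4a31 with 1061, 1721 and 2484 and in Cyp4f15 with 1187, 1945 and 2525. Among the 23 hepatocyte markers 0 reached that ratio, the highest being 1.74 for G6pc. Medians of the ratio were 1.25 over the 32 genes and 1.16 over the markers, and Cyp2f2 and Cyp2c23 had 1.06 each. Replicate 1 was not low throughout: it was the highest hepatocyte array for 9 of the 32 genes, among them Cyp2d37-ps with 1454, 903.5 and 746. These ratios are a description with no test.

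The other 29 members stayed below the filter, with intensities of 14.61 to 221.2 on all arrays, and carried no test. They included 22 of the 45 family 2 genes. The closest to the filter was Cyp2w1, whose second highest array read 203.9, while the lowest member above it, Cyp3a44, had 282.9. Cyp2c39 was the 1 member below the filter with a hepatocyte mean of at least 2 times the highest other array, with 92.98, 83.19 and 111.1 in hepatocytes against at most 42.37 elsewhere. Cyp2s1, better known from epithelia, had 132.3 to 156.3 in hepatocytes and 109.6 to 171.7 on the other arrays, so its groups overlapped. Genes with a sex bias in mouse liver fell on both sides. The male-biased genes Cyp2d9, Cyp4a12a and Cyp4a12b were all higher in hepatocytes, with Cyp2d9, a steroid hydroxylase gene, at 1013, 942.9 and 962.5 in hepatocytes against 157.8 and 87.34 in HSC day 1. Of the 4 female-biased genes with a probe set of their own, Cyp2b9, Cyp2b13 and Cyp3a16 were below the filter, with 29.14 to 100.4 in hepatocytes. The other, Cyp3a44, was called. Cyp2a4, Cyp2c40, Cyp2c69, Cyp3a41a and Cyp3a41b, also female-biased, occur only on probe sets with several symbols and were not tested. Those probe sets read 596 to 7871 in hepatocytes, and which gene gave the signal cannot be told apart.

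On the HSC day 1 arrays, transcripts of the 32 hepatocyte genes were read at shares of the hepatocyte mean that differed from gene to gene and between the replicates. The median share was 11.8% on replicate 1 and 5.01% on replicate 2, against 2.41% to 2.45% on the Kupffer cell arrays and 1.68% to 2.17% on the LSEC arrays. Replicate 1 lay above replicate 2 for 29 of the 32 genes. The highest shares on replicate 1 were those of Cyp2d40, Cyp2j6, Cyp3a44 and Cyp2d37-ps, from 29.9% to 40.8%, but these genes also had 19.4% to 38.1% on day 7 and day 14. Below them, Cyp2e1 reached 25.4% and 9.87% on the HSC day 1 replicates, Cyp2c29 23.2% and 11.2%, and Cyp4a10 22.3% and 5.95%. At the low end were Cyp2f2 with 1% and 1.72% and Cyp2c70 with 1.4% and 1.45%, close to their 1.62% and 1.46% on Kupffer cell replicate 1. By day 7 and day 14 the medians were 2.25% and 2.1%.

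The genes known as pericentral were among those read on the HSC day 1 arrays. The 7 measured genes on the pericentral list (Cyp1a2, Cyp2c29, Cyp2c37, Cyp2c50, Cyp2c54, Cyp2e1 and Cyp3a11) had a median share of 14.2% on HSC day 1 replicate 1, with a range of 5.33% to 25.4%, and of 5.45% on replicate 2, with a range of 2.89% to 11.2%. Over all 32 hepatocyte genes the medians were close to these, at 11.8% and 5.01%. Off the list, Cyp4a10 and Cyp2b10 had 22.3% and 18.2% on replicate 1, while Cyp2c70 had 1.4%. The periportal gene Cyp2f2 had 1% and 1.72%, and as it is the 1 gene on its list, no zonal pattern can be read from these shares. Hepatocyte markers were uneven too. Over the 23 markers the median was 6.39% on replicate 1 and 3.38% on replicate 2, with albumin (Alb) at 47.7% and 33.8% and the tyrosine-degrading enzyme gene Tat at 1.09% and 1.21%. Alb read 8855 and 6285 on the HSC day 1 arrays and 3374, 1027 and 2292 on the Kupffer cell arrays, against 18474 to 18674 in hepatocytes. The part of hepatocyte RNA in the HSC day 1 values was not tested.

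**Figure D3:**
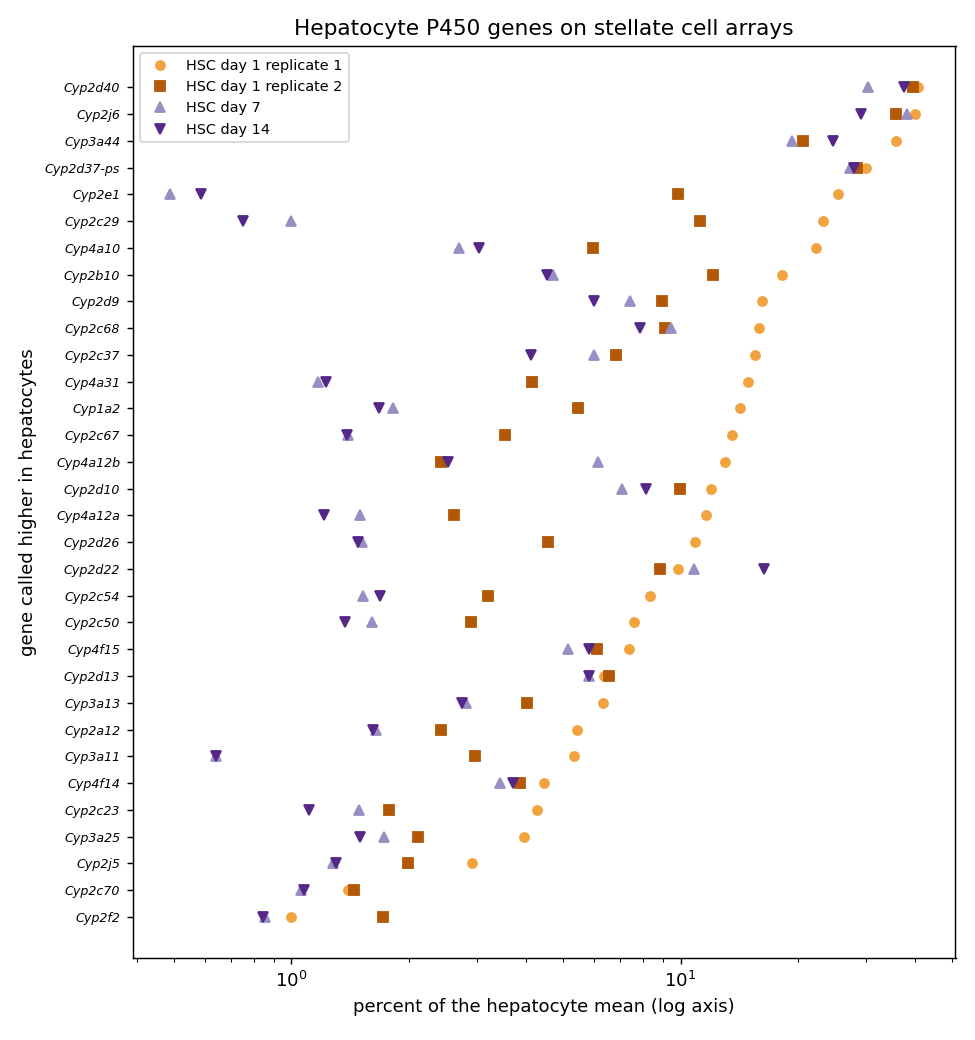
Intensity of the 32 members called higher in hepatocytes on the 4 HSC arrays (one symbol per array), as a percent of the hepatocyte mean on a log axis, sorted by HSC day 1 replicate 1. Replicate 1 lies to the right of replicate 2 for 29 genes, and Cyp2e1 has the widest span, with 25.4% on replicate 1 and 0.488% on day 7.

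Between the HSC day 1 and LSEC arrays, 13 members (18.6% of the 70, with 41 tested) were higher in HSC day 1, against 5.6% of the 12081 genes tested. In LSEC 2 members were higher, against 5.24%. Cyp2e1 had the widest difference, 3.69 (SE 0.272, adjusted p = 4.3e-07), followed by Cyp2c29 at 2.89, Cyp4a12a at 2.01, Cyp4a14 at 1.99, Cyp2d26 at 1.86, Cyp4a12b at 1.72 and Cyp3a11 at 1.59. Cyp1a2, Cyp1b1, Cyp2b10, Cyp4a31, Cyp4a10 and Cyp2c67 made up the rest, with differences of 1.4 to 1.03. Of the 13, Cyp1b1 and Cyp4a14 were the ones not called higher in hepatocytes. The 2 higher in LSEC were Cyp2d22, by 1.16, and Cyp4b1. Against Kupffer cells, 14 members (20% of the 70, with 41 tested) were higher in HSC day 1, against 12.9% of all genes tested. Cyp4f13 and Cyp4f18 were higher in Kupffer cells, where 11.7% of all genes were. Without HSC day 1 replicate 1, the one richer in hepatocyte markers, 6 members were higher in HSC day 1 than in LSEC, and without replicate 2 there were 17.

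Cyp4a14, an omega-hydroxylase gene under PPARA control, was the 1 Cyp4a gene not called higher in hepatocytes. It read 1064 and 260.8 in HSC day 1, against 597.9, 531 and 435.8 in hepatocytes, 97.23, 76.93 and 96.05 in Kupffer cells and 76.82, 67.05 and 83.51 in LSEC. One HSC day 1 array thus lay above and the other below all hepatocyte arrays, at 204% and 50% of their mean. The difference between HSC day 1 and hepatocytes was 0.06 (SE 0.344, adjusted p = 0.88). Without HSC day 1 replicate 1 its sign turned, to -0.81 (adjusted p = 0.00077). Hepatocytes were above LSEC by 1.92 (adjusted p = 0.00012) and above Kupffer cells by 1.8 (adjusted p = 0.0002). The adjoining gene Cyp4a10 had 339.7 and 90.76 in HSC day 1 against 946.3, 1679 and 1951 in hepatocytes.

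LSEC held the highest level of Cyp4b1, a family 4 gene best known from the lung, where its product activates plant and fungal toxins. Its intensity was 4780, 5533 and 3199 in LSEC, against 309.6, 182.9 and 358.6 in hepatocytes, 385.5, 347.1 and 320.9 in Kupffer cells and 1100 and 1027 in HSC day 1. The LSEC arrays lay above all others, by 1.97 from HSC day 1 (SE 0.224, adjusted p = 1.8e-05) and by 3.64 from hepatocytes (adjusted p = 7.2e-09). It was the 1 member of 70 called higher in LSEC, where 2.35% of all genes tested were. On chromosome 4 it lies 1 protein-coding gene away from Cyp4a31, which was called higher in hepatocytes. The HSC day 1 arrays, on which Cyp4b1 was second, read 11786 and 10798 over the endothelial markers, and the Kupffer cell arrays 14454 to 16788. Cdh5 alone gave 6552 and 5427 of the former and 9141 to 10040 of the latter. Other markers went either way. Stab1 had 1807 to 1951 in Kupffer cells against 692.8 and 740.9 in HSC day 1. Tek had 124.1 to 154.1 in Kupffer cells against 541.7 and 541.1 in HSC day 1. The sums thus do not rank these arrays by endothelial RNA. The part of endothelial RNA in the HSC day 1 level of Cyp4b1 was not tested.

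Cyp1a1, the best known target of AHR, was likewise higher in LSEC and in HSC day 1 than in hepatocytes. It had 260.6, 870.5 and 1078 in LSEC and 537.6 and 442.1 in HSC day 1, against 101.8, 72.56 and 111.2 in hepatocytes and 91.67, 69.01 and 82.23 in Kupffer cells. LSEC and HSC day 1 overlapped with each other and lay above the other cells. LSEC differed from hepatocytes by 2.03 (SE 0.331, adjusted p = 0.00014) and HSC day 1 by 1.69 (SE 0.37, adjusted p = 0.0015), while LSEC and HSC day 1 differed by 0.34 (adjusted p = 0.48), so no population was called. That last difference rested on single arrays, being 0.88 without LSEC replicate 1, 0.15 without LSEC replicate 2 and 0 without LSEC replicate 3, each below the threshold of 1. Ahr itself had 2429, 3256 and 2950 in LSEC, against 1224, 1216 and 1215 in hepatocytes, 496.1, 461.4 and 553.8 in Kupffer cells and 1472 and 1353 in HSC day 1. Its difference from HSC day 1, the nearest, was 0.98, short of the threshold of 1. The promoters printed above hold GCGTG in Cyp1a1 and none in Cyp1a2, which is a description of the letters alone.

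Kupffer cells held the highest level of Cyp4f18, which hydroxylates leukotriene B4 in mouse myeloid cells. It had 1277, 1276 and 1075 in Kupffer cells, against 349.6, 220.9 and 182.9 in hepatocytes, 115.2, 107.8 and 122.2 in LSEC and 169.5 and 205.9 in HSC day 1. The Kupffer cell arrays did not overlap with any other, and the difference from hepatocytes, the nearest, was 1.98 (SE 0.148, with a largest adjusted p of 1.3e-07 over the 3 contrasts). It was the 1 member called there, against 6.53% of all genes tested. Other genes leaned the same way by less than the threshold. Cyp2r1, a vitamin D hydroxylase gene, had 523.4, 518.2 and 522.3 in Kupffer cells, against 325, 398.7 and 355.6 in hepatocytes, 243.2, 268.6 and 213.2 in LSEC and 237.7 and 264.8 in HSC day 1. All 3 Kupffer cell arrays were above every other array, but the difference from hepatocytes was 0.45 (SE 0.0872, adjusted p = 0.00052). Cyp4f16 had 717.9, 667.9 and 732.8 in Kupffer cells, against 395.4 to 421.7 in hepatocytes and 344 to 529.2 in LSEC and HSC day 1, a difference of 0.52 from HSC day 1.

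Cyp4f13 and Cyp2u1 were shared between cell types. Cyp4f13 had 3099, 3110 and 2853 in hepatocytes, against 1803, 1785 and 1826 in Kupffer cells, 736.6, 789.1 and 926.6 in LSEC and 688.2 and 742.3 in HSC day 1. Hepatocytes and Kupffer cells each stood apart from the other cells, with differences of 0.72 between hepatocytes and Kupffer cells (adjusted p = 9e-06) and of 1.07 between Kupffer cells and LSEC (adjusted p = 2.9e-07). Cyp4f13 and Cyp4f18 were the 2 members higher in Kupffer cells than in LSEC, against 9.54% of all genes, and Cyp1a1, Cyp2d22, Cyp2j6 and Cyp4b1 were the 4 higher in LSEC, against 10.3%. Cyp2u1, whose human counterpart hydroxylates long-chain fatty acids, had 346.4 and 347.8 in HSC day 1 and 331.7, 319.2 and 344.3 in hepatocytes, against 145.8 to 216.5 in Kupffer cells and LSEC. HSC day 1 and hepatocytes differed by 0.05 (adjusted p = 0.69), and both were above Kupffer cells and LSEC by 0.69 to 0.75, less than the threshold.

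Cyp1b1, an AHR target outside hepatocytes that hydroxylates estradiol, was the 1 member called higher in HSC day 1, against 2.59% of all genes tested. It had 390.8 and 500.1 in HSC day 1, against 112.8, 109.8 and 102.2 in hepatocytes, 142.2, 93.92 and 155.1 in Kupffer cells and 159.7, 142.2 and 141.6 in LSEC. Both HSC arrays lay above all others, by 1.19 from LSEC (SE 0.127, adjusted p = 1.1e-05). With either HSC day 1 array left out it did not pass the filter on low values and the count was 0.

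**Figure D4:**
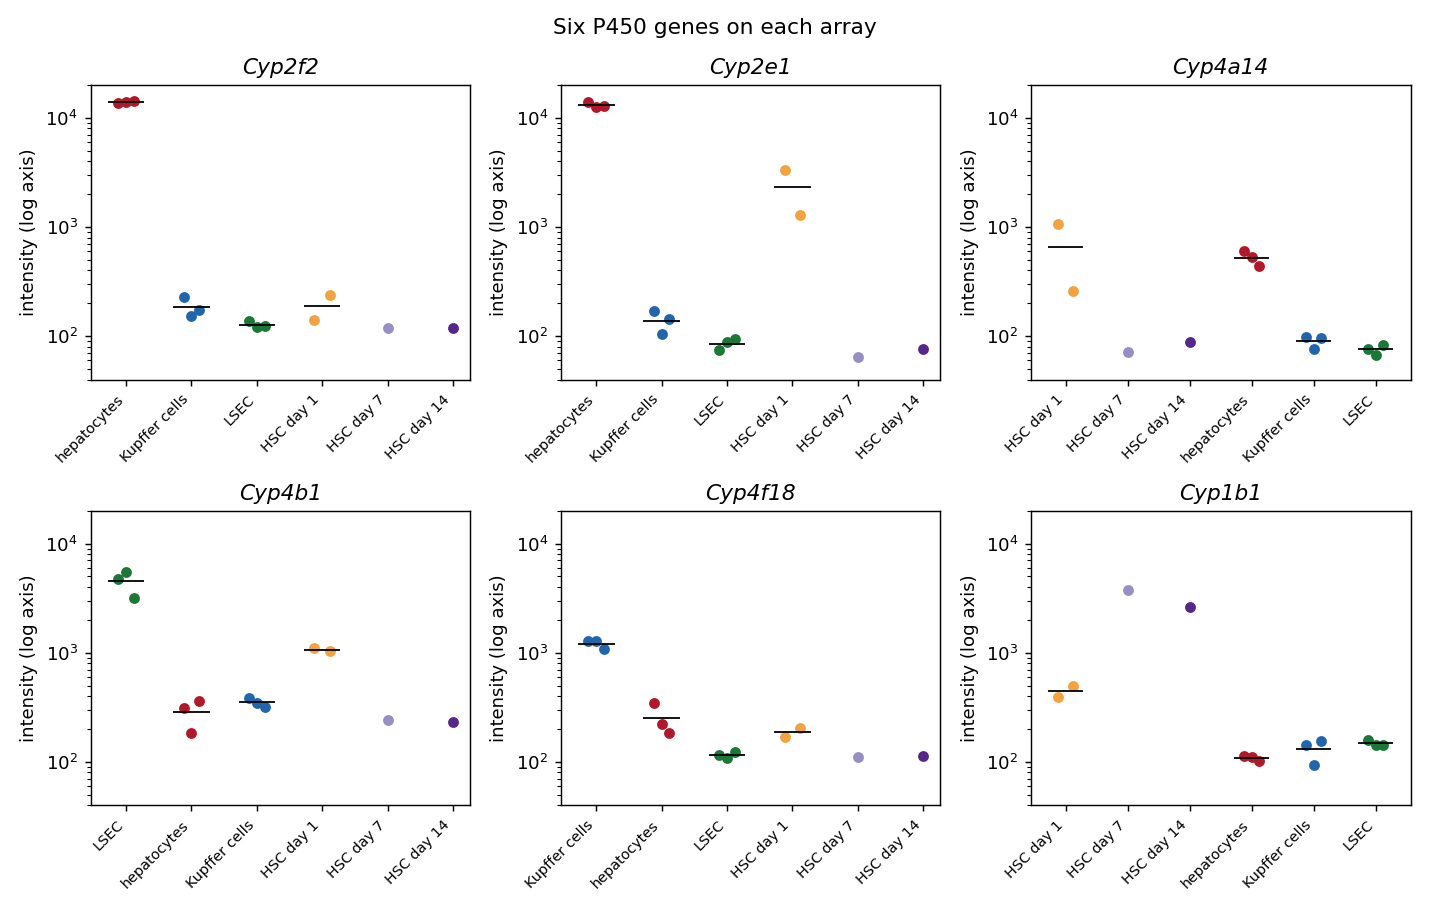
Intensity (log axis) of 6 members on each array, by cell type, with group means as bars where a group has more than 1 array. Cyp2f2 and Cyp2e1 are highest in hepatocytes, Cyp4b1 in LSEC and Cyp4f18 in Kupffer cells, Cyp4a14 has 1 HSC day 1 array above hepatocytes, and Cyp1b1 reaches 3780 and 2632 in HSC at day 7 and day 14.

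Longer culture of HSC was compared with day 1 by setting the day 7 and day 14 arrays, 1 each, against the 2 arrays of day 1, with the spread taken from all 13 arrays. Cyp1b1 rose and 14 members (20% of the 70, with 41 tested) fell, against 5.52% and 4.27% of the 12368 genes tested. Cyp1b1 had 390.8 and 500.1 on day 1, 3780 on day 7 and 2632 on day 14. The later arrays lay far above day 1, by 2.62 (SE 0.169, adjusted p = 1.7e-07). Without any filter the median difference was -0.15 over the 70 members and 0 over all genes.

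The widest fall was that of Cyp2e1, with 3340 and 1299 on day 1, 64.28 on day 7 and 76.91 on day 14, a difference of -3.83 (SE 0.291, adjusted p = 8.3e-07). Cyp2c29, an epoxygenase gene, followed with 1265 and 610.4 on day 1, 54.27 on day 7 and 40.85 on day 14, a difference of -2.89 (SE 0.216, adjusted p = 7.1e-07). Both ended near the level of the LSEC arrays, where Cyp2e1 had 74.29 to 93.42 and Cyp2c29 had 40.04 to 51.6. Cyp4a14 had 1064 and 260.8 on day 1, 70.95 on day 7 and 88.21 on day 14, a difference of -1.95 (SE 0.369, adjusted p = 0.00096), or of -1.08 without HSC day 1 replicate 1. Cyp2d26 had 1045 and 436.9, 145.2 and 141.1 in that order, and Cyp3a11 had 391.1 and 216.8, 47 and 46.97, with differences of -1.76 (adjusted p = 0.00012) and -1.54 (adjusted p = 2.8e-05). Each of these genes had both later arrays below both day 1 arrays. Cyp4a12a fell by 1.51 (adjusted p = 0.0057), with 928.1 and 210.1 on day 1, 120 on day 7 and 97.02 on day 14, while Cyp4a12b had 361.3 on day 7, inside its day 1 range of 143.1 to 768.5, and was not called. Cyp1a2, Cyp4a31, Cyp2b10, Cyp2c54, Cyp4a10 and Cyp2c67 fell by 1.41 to 1.09.

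The culture and population comparisons share the HSC day 1 arrays. Of the 14 genes that fell, Cyp1a1, Cyp4a14 and Cyp4b1 were the ones not called higher in hepatocytes. Cyp4b1 had 1100 and 1027 on day 1, 244.2 on day 7 and 231.7 on day 14, a difference of -1.84 (SE 0.239, adjusted p = 6.1e-05). Cyp1a1 had 537.6 and 442.1 on day 1, 176.5 on day 7 and 81.2 on day 14, a difference of -1.47 (SE 0.417, adjusted p = 0.012). The later arrays of Cyp4b1 lay within the range of its hepatocyte arrays, as did Cyp1a1 at day 14, whereas Cyp1a1 at day 7 lay above its hepatocyte and below its LSEC arrays. Over the same days the hepatocyte markers fell in 11 of 23 cases and the endothelial markers in 7 of 10, with a difference of -5.26 for Alb (adjusted p = 4.1e-07), and their part in the falls was not tested. Without HSC day 1 replicate 1, 6 members fell, and without replicate 2, 18 did, while a fit of the HSC arrays alone gave 7. The call of Cyp4a12a was lost without HSC day 1 replicate 1 (difference -0.62), and that of Cyp1a1 without HSC day 1 replicate 1 (difference -1.35, adjusted p = 0.068) and without the day 14 array (difference -1.14, adjusted p = 0.097).

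The partners and regulators of the P450 enzymes were followed on lists of their own. Of 5 genes measured on the list of electron donors and partners, 2 were higher in hepatocytes, against 6.8% of all genes tested. They were Fdx1, the ferredoxin that serves mitochondrial P450 enzymes, and Pgrmc1, a haem-binding partner of P450 enzymes. Fdx1 had 1449, 1441 and 1309 in hepatocytes and 133 to 211.5 elsewhere, a difference of 2.39 (adjusted p = 1.9e-10), and Pgrmc1 was higher by 2.19 (adjusted p = 1.3e-08). Cyb5a, the microsomal cytochrome b5 gene, averaged 10417 in hepatocytes and 7483 in LSEC and did not pass, at 0.47. The remaining genes of the list did not pass either. The reductase gene Por was not analysed here. Of 7 haem synthesis genes, 1 was higher in hepatocytes, a count too small to set apart from the 6.8% of all genes tested. Alas1, the first and rate-limiting enzyme, had 3776, 4234 and 4613 in hepatocytes, against 1911 and 1455 in HSC day 1, a difference of 1.29 (adjusted p = 2.7e-06). Alad, the next enzyme, did not pass, at 0.43.

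Of 18 regulator genes measured, 16 were tested, 6 were higher in hepatocytes, against 6.8% of all genes tested, and 2 in Kupffer cells, against 6.53%. Hnf4a, a master regulator of hepatocyte genes, was higher in hepatocytes by 3.69, Ppara, which drives the Cyp4a genes, by 2.43, and Foxa3 by 2.18. Nr1i2, which encodes PXR, had 454.3, 613.4 and 667.1 in hepatocytes and at most 126.2 elsewhere. Its difference was 1.67 (with a largest adjusted p of 7.8e-08 over the 3 contrasts). Nr1i3, which encodes CAR, had 313.6, 261.3 and 419.8 in hepatocytes and at most 132 elsewhere, and at 0.99 it stood just short of the threshold. Ppara read 119.4 and 117.7 in HSC day 1, against 907.1 to 1149 in hepatocytes, on the arrays where Cyp4a14 was at 204% and 50% of the hepatocyte mean. The oxysterol receptor gene Nr1h3 was higher in Kupffer cells by 3.21, with 5191, 5020 and 5105 in Kupffer cells against 386.6 to 551.8 in hepatocytes, and so was Rxra, the shared partner of these receptors, by 1.49. In longer HSC culture 1 regulator fell, a count too small to set apart from the 4.27% of all genes tested. It was the bile acid receptor gene Nr1h4, which fell by 1.52 (adjusted p = 8.4e-05).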

How the data were processed

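Total RNA from the liver cells was measured on 13 arrays. The deposited values are linear intensities, 1 for each array and each of 25194 probe sets. Affymetrix Expression Console and MAS5 (version 5.0) are named in the submitters' processing notes, with no role or order. How background was corrected, how arrays were normalized and which genome build was used are not given in the sources used here, and detection calls did not come with the table.

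Gene names came from the platform annotation, and 1379 probe sets with several symbols and 2634 with none were left out of the tests. All 70 members matched RefSeq by Entrez identifier. Before taking log2, 83 (the 20th percentile of all values) was added to each intensity, so a log2 difference understates the fold of dim genes. Levels of different genes are not comparable. Genes above 224.5, the pooled median, on at least 2 arrays of a fit were kept. The 11 arrays of the 4 populations were fitted together in R 4.3.3 with limma 3.58.1 (12081 genes, 7 residual degrees of freedom, prior 4.86). The culture fit used 13 arrays (12368 genes, 8 residual degrees of freedom, prior 4.46). Adjusted p-values are Benjamini-Hochberg over all genes tested within a contrast, two-sided, and for a population call the largest of 3. In the population fit they measure the spread between arrays titled biological replicates. In the culture fit the day 7 and day 14 arrays, which are not titled so, were treated as replicates, and the difference between them enters the spread. The number of arrays limits the precision of both fits. The fits were tested on simulated data.

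Every member could be named. Array-by-array values were given for the 12 widest in hepatocytes, those called elsewhere, up to 8 culture calls in each direction and a list of anchor genes, and from the other lists up to 3 called genes and 2 that did not pass. Values of further members and regulators are given where a result turns on them, chosen after their values were seen. Members and lists were chosen with earlier results of these data known. Alternatives changed the added constant, the filter, the normalization, the probe set rule, the prior and the arrays included. Same-numbered replicates of different populations had deviations from their group means that correlated between -0.111 and 0.11. For differently numbered replicates the range was -0.125 to 0.131. With 2 or 3 arrays in a group, these values cannot exclude pairing. The labels do not say that a number marks a shared animal, so the numbers were not taken to pair samples. Promoter sequences came from RefSeq windows in GRCm38.p6.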

Additional observations from a re-analysis of the deposited data

How the results depend on the processing

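Over the alternatives, 29 to 32 members were higher in hepatocytes, 1 in Kupffer cells and 1 in LSEC. Adding 224, the pooled median, before taking logs left 0 members higher in HSC day 1 (Cyp1b1 at 0.84), 6 higher in HSC day 1 than in LSEC, 1 higher in Kupffer cells than in LSEC and 7 lower in long HSC culture (Cyp3a11 at -0.94), where a larger constant shrinks every difference of dim genes. Adding 33 instead gave 18 higher in HSC day 1 than in LSEC. The HSC arrays alone gave 7 lower in long culture, with the cause not tested. Leaving out 1 array at a time gave 31 to 32 members higher in hepatocytes, 0 to 1 higher in HSC day 1, 6 to 17 higher in HSC day 1 than in LSEC and 6 to 18 lower in long culture. The difference of Cyp4a14 between HSC day 1 and the nearest population turned to -0.02 with quantile normalization, to -0.04 without hepatocyte replicate 3 and to -0.81 without HSC day 1 replicate 1, and was 0.93 without replicate 2. The fall of Cyp4a12a in culture shrank to -0.62 without HSC day 1 replicate 1. With the replicate number as a block, 32 members were higher in hepatocytes and 14 higher in HSC day 1 than in LSEC, and the other population counts were unchanged. Signal near the level of unexpressed probe sets limits what can be said of the 29 members below the filter.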

Other observations

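Probe sets that carry several symbols were left out of the tests, among them 7 that name a P450 gene of these families, and 9 symbols occur on such probe sets alone. The probe set of Cyp2a5 and Cyp2a4, whose products oxidise coumarin and steroids, had 7871, 2255 and 2928 in hepatocytes, against 1692 and 730 in HSC day 1 and 69.6 to 112 in Kupffer cells and LSEC. Here hepatocyte replicate 1 was the highest, unlike in Cyp4a10, Cyp4a31 and Cyp2c70. The probe set of Cyp3a41a, Cyp3a41b and Cyp3a44 had 718, 1390 and 1463 in hepatocytes and at most 79.4 elsewhere, with replicate 1 the lowest, as in Cyp3a44. The probe set of Cyp4v3 and the kallikrein gene Klkb1 had 2163, 2383 and 2180 in hepatocytes, against 627, 577 and 617 in Kupffer cells and 142 to 226 in LSEC and HSC day 1, and which of the pair gave the Kupffer cell values cannot be told apart.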
